A study of Mus musculus with 12 samples.

Results

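The cytoplasmic ribosomal protein genes of mouse embryonic stem cells (ESCs) were examined: 85 genes of 24881 gene symbols in the expression table, taken by their symbols (Rpl or Rps with a number, the stalk genes Rplp0 to Rplp2, and Rpsa) by a rule that reads no measured value. Of these, 32 encode proteins of the small subunit, 50 proteins of the large subunit and 3 the stalk. Further, 76 are the usual genes and 9 are related copies with a symbol ending in l, l1 or al. All 85 were above 0 in each library and all 85 entered the test. GENCODE annotates 83 as protein coding and Rpl32l and Rps4l as pseudogenes.

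The study asked how P53 acts on the cell cycle of ESCs in serum and in the ground state. R1 ESCs carrying the FUCCI reporter, whose fluorescence marks the cell cycle phase, were sorted in G1, and RNA depleted of ribosomal RNA was sequenced. WT serum and P53-/- serum ESCs grew in serum medium with LIF. WT 2i and P53-/- 2i ESCs grew in N2B27 with the MEK inhibitor PD0325901, the GSK3 inhibitor CHIR99021 and LIF. In the P53-/- cells (P53KO in the plots) Trp53 was disrupted with CRISPR-Cas9. The P53-/- RNA came from 2 independent clones, per the study, and the column headers do not say which library is from which clone, so the spread between P53-/- libraries may hold a difference between clones. All groups share the R1 background, the reporter, LIF and the G1 sort. Each of the 4 groups had 2 libraries. For the WT groups the sources do not say whether the libraries came from separate cultures. The p-values measure the spread between these libraries, which for WT may be technical.

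The ribosome holds 1 copy of each of the proteins of the usual genes, apart from the stalk, which carries several copies of the P1 and P2 proteins. Their mRNAs are among the most abundant in dividing cells, and most begin with a terminal oligopyrimidine tract (TOP), a run of C and T at the cap through which mTORC1 and LARP1 control their translation. Ribosomal proteins that are not built into ribosomes, RPL5 and RPL11 above all, bind MDM2 and thereby stabilise P53, which is the best known link of this family to the P53 pathway.

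Levels are given as FPKM, fragments per kilobase of transcript scaled to the mapped fragments of the library, a level per length. FPKM keeps no counts, and the depth estimated from the lowest values ran from 5160000 to 13020000 fragments. Differences are on the log2(FPKM + 0.1) scale from a limma fit of all 12572 genes whose FPKM averaged 0.5 or more over the 8 libraries. A gene is said to have risen or fallen when its Benjamini-Hochberg adjusted p over all those genes was under 0.1 and its fold over 1.5. The genotype was visible in the table: Mdm2, a P53 target, lay between 42.8 and 79.7 FPKM in the WT libraries and between 12.3 and 21.8 FPKM in the P53-/- libraries, and Cdkn1a between 15.9 and 23.9 FPKM against 3.56 to 4.64 FPKM. Trp53 itself was at 26.8 to 77.6 FPKM in WT and 1.88 to 16.8 FPKM in P53-/- ESCs. By the rule above all 3 of these genes fell in P53-/- 2i against WT 2i, and 2 of the 3 fell in serum. The 8 ESC markers were all above 0 and summed to between 3090 and 4200 FPKM in every library, but single markers moved with the culture. In WT 2i against serum Pou5f1 rose and Utf1 (-3.07), Sall4 (-1.85) and Sox2 fell, and in P53-/- ESCs 1 rose and 5 fell. The 8 fibroblast or feeder markers summed to 1.75 to 2.73 FPKM in 2i and 8.31 to 11.7 FPKM in serum, with 3 to 5 of them at 0 in both libraries of a group. The 5 trophoblast markers summed to 22.9 to 25.6 FPKM in 2i and 8.54 to 12.4 FPKM in serum.

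The ribosomal protein genes took a larger part of the measured transcriptome in 2i than in serum. Leaving out 1304 small RNA genes, their share of the FPKM sum was 23.1% and 23.7% in the WT 2i libraries and 21.7% and 20.7% in the P53-/- 2i libraries. In serum it was 13.1% and 13.7% for WT and 13.4% and 14.2% for P53-/- ESCs. The 4 libraries in 2i all lay above the 4 in serum, while the genotypes differed by much less. The group means were 23.4% ± 0.424 (SD, n = 2) for WT 2i, 21.2% ± 0.707 (SD, n = 2) for P53-/- 2i, 13.4% ± 0.424 (SD, n = 2) for WT serum and 13.8% ± 0.566 (SD, n = 2) for P53-/- serum. Without the 5 genes of highest level the means were 18.2%, 16.6%, 11.1% and 11.5% in the same order. These shares are sums over the chosen genes and are given as a description, with no test. In bulk RNA, more cells with a given level and more RNA per cell cannot be told apart.

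**Figure D1:**
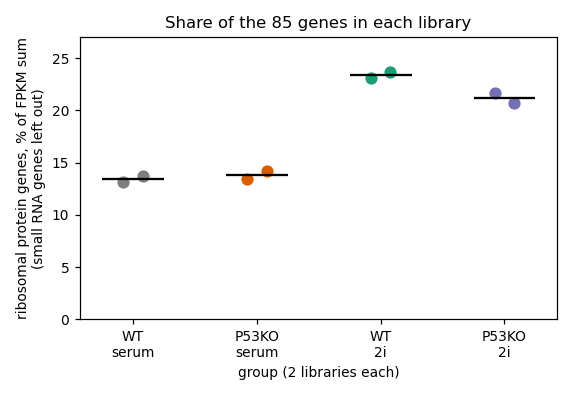
Share of the 85 ribosomal protein genes in the FPKM sum of each library, small RNA genes left out. Points are libraries (2 in each group) and bars the group means; the 2i libraries lie between 20.7% and 23.7% and the serum libraries between 13.1% and 14.2%.

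The family spans a wide range of levels. The 5 genes of highest mean FPKM were Rpl32 (3909 FPKM), Rplp1, Rps21, Rps14 and Rpl8, and 32 of the 50 protein-coding genes of highest mean level in the table were ribosomal protein genes. The mean lay above 1000 FPKM for 36 of the 85 and above 100 FPKM for 78. The 5 lowest were Rpl3l, Rpl32l, Rps27, Rpl29 and Rpl39l, of which 3 are related copies. Rpl3l, a copy known from striated muscle, stood at 0.576 FPKM against 713.9 FPKM for Rpl3. Among the 76 usual genes the highest and the lowest mean differed 371-fold.

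These levels depend on which gene a fragment is assigned to. Ribosomal protein genes have many processed pseudogenes, copies of the mRNA inserted elsewhere in the genome. Of the 50-base words of a gene's coding sequence, the median over the 85 genes of the percentage also found in a transcript of another GENCODE gene was 90.35%. All words were shared for 28 genes, at least 50% for 68 and under 50% for 17, and 82 of the 85 shared words with an annotated pseudogene. Rps27, the lowest usual gene, shared 100% of its words and was listed at 7.76 to 13.4 FPKM. Rps27rt, a retrogene copy that the symbol rule does not take, shared the same percentage and was listed at 961.7 to 1823 FPKM. The level of a single gene is therefore uncertain where words are shared, and so is any order of levels among the genes. By contrast Rpl8 shared 8.69% of its words.

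In WT ESCs, 2i against serum showed the ribosomal protein genes moving largely one way. Of the 85, 56 rose in 2i (65.9%, where 27.2% of all genes tested rose) and 2 fell (2.35%, where 28.6% of all genes tested fell), while 27 did neither. The median difference over the 85 was 0.82 (log2), a 1.77-fold higher level, against -0.02 over all genes tested, and 75 of the 85 differences were above 0. The 2 groups of libraries did not overlap for 66 genes that were higher (77.6%, against 40.0% of all genes tested) and 7 that were lower (8.24%, against 41.7%). Leaving out any single library gave 50 to 60 rises and a median between 0.79 and 0.86.

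**Figure D2:**
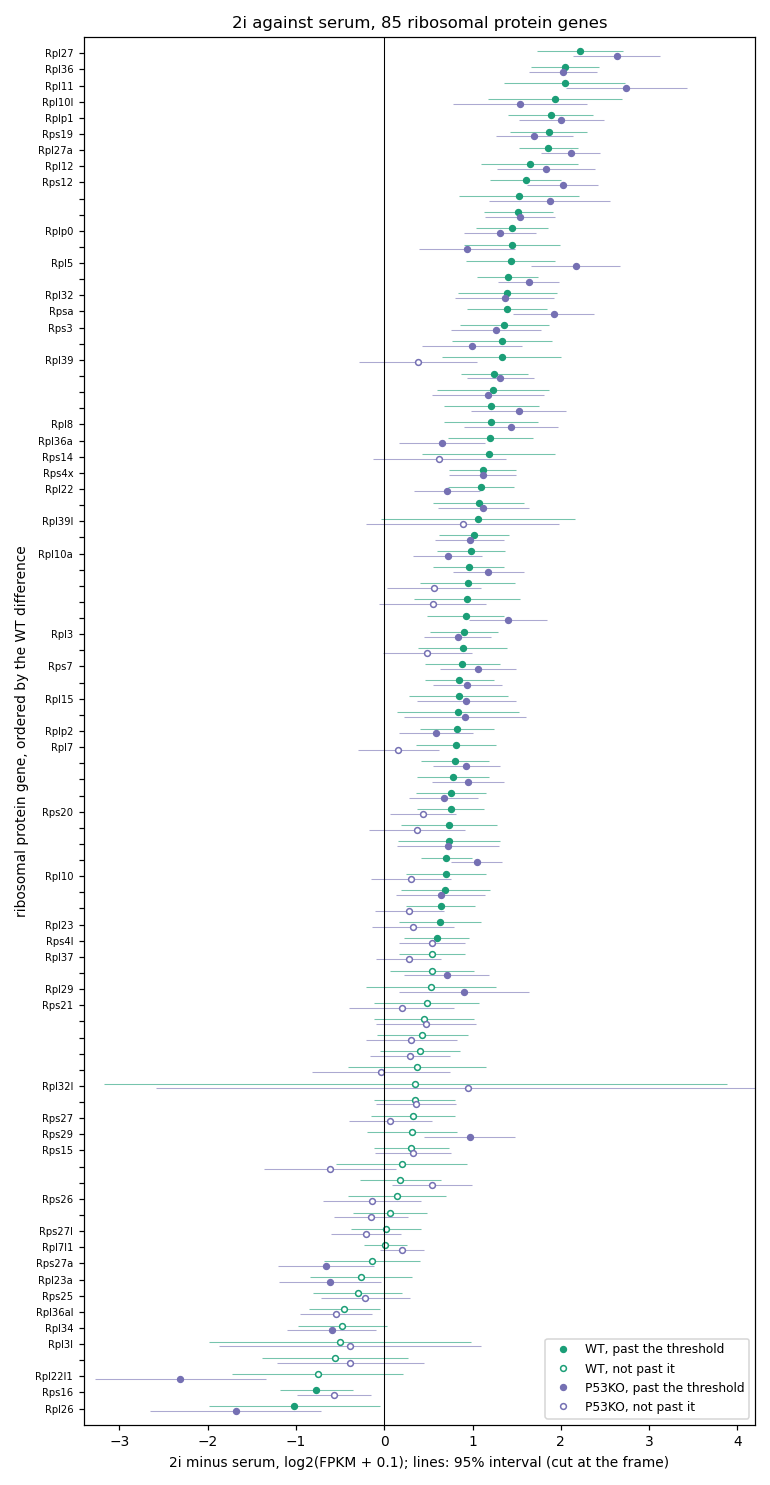
Difference between 2i and serum for each of the 85 genes on the log2(FPKM + 0.1) scale, in WT (green) and P53-/- ESCs (purple, P53KO), ordered by the WT difference, with the genes described in the text named on the axis. Lines are 95% intervals of the limma fit; filled points passed an adjusted p under 0.1 with a fold over 1.5, 58 of them in WT and 51 in P53-/- ESCs.

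The largest rises in WT belonged to genes of both subunits and the stalk. Rpl27, of the large subunit, was at 85.1 and 64.6 FPKM in WT serum and at 334.3 and 356 FPKM in WT 2i. The difference was 2.22 (SE 0.21, limma adjusted p = 0.000116). Rpl36 went from 457 and 511.7 FPKM in serum to 2042 and 1954 FPKM in 2i, a difference of 2.05 (SE 0.17, limma adjusted p = 6.5e-05). In both genes every 2i library lay well above every serum library. Rpl11 was at 101 and 49.4 FPKM in WT serum and at 294.4 and 288.4 FPKM in WT 2i, a difference of 2.04 (SE 0.30). The serum libraries of Rpl11 differed from each other about as much as some genes differ between cultures, and the difference ran from 1.53 to 2.56 when single libraries were left out. Rplp1, of the stalk that recruits elongation factors, was at 1468 and 1463 FPKM in serum and 5357 and 5469 FPKM in 2i, a difference of 1.88 (SE 0.21). Rps19, the gene most often mutated in Diamond-Blackfan anaemia, was at 455.3 and 490.3 FPKM in serum and 1624 and 1813 FPKM in 2i, a difference of 1.86 (SE 0.19). The libraries of a culture agreed closely in both of these genes. The remaining gene among the 6 largest, Rpl10l, is a copy of Rpl10 known for its role in the testis, and lay at 35.5 and 37.0 FPKM in serum against 135.7 and 141.4 FPKM in 2i, a difference of 1.93 (SE 0.33).

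The P53-/- ESCs, which share no library with the WT comparison, also had more rises than falls in 2i. Of the 85, 46 rose in 2i (54.1%, where 28.0% of all genes tested rose) and 5 fell (5.88%, where 30.1% of all genes tested fell). The median difference was 0.71 (log2), or 1.64-fold, against -0.03 over all genes tested. Groups did not overlap for 64 genes that were higher (75.3%, against 39.7% of all genes tested) and 10 that were lower (11.8%, against 42.1%). Leaving out single libraries gave 39 to 50 rises and 2 to 9 falls. The lowest number of rises came without the first P53-/- serum library and the highest number of falls without the first P53-/- 2i library.

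The largest rises in P53-/- ESCs were those of Rpl11, Rpl27, Rpl5, Rpl27a, Rpl36 and Rps12. Rpl11 was at 47.4 and 42.2 FPKM in P53-/- serum and at 336.4 and 266.8 FPKM in P53-/- 2i, a difference of 2.74 (SE 0.30, limma adjusted p = 0.000166). Rpl27 was at 48.9 and 50.1 FPKM in serum and 379.8 and 249.5 FPKM in 2i, a difference of 2.63 (SE 0.21). Rpl5, whose protein joins RPL11 and the 5S rRNA in 1 particle, was at 132.5 and 117.8 FPKM in serum and 564.2 and 559.6 FPKM in 2i, a difference of 2.17 (SE 0.22). The 2 partners of the 5S particle were thus both among the genes with the widest gap between the cultures. Rpl27a differed by 2.11 (SE 0.14), Rpl36 by 2.03 (SE 0.17) and Rps12 by 2.02 (SE 0.17).

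Between the genotypes, 43 genes rose in 2i in both comparisons, which is 76.8% of the 56 in WT and 93.5% of the 46 in P53-/- ESCs. Rpl26 fell in both, 20 genes of the 85 passed in neither, and 80 differences had the same sign in WT and P53-/- ESCs. Across the 85 genes the differences of the 2 genotypes had a Pearson correlation of 0.909 and a Spearman correlation of 0.885. Over all 12572 genes tested, 2784 rose in both, which is 81.5% of the rises in WT and 79.0% of those in P53-/- ESCs. The sign was the same for 87.0% of all genes tested and 94.1% of the 85, and over all genes the Pearson correlation was 0.836 and the Spearman correlation 0.890. The likeness of the genotypes was thus a trait of the whole table. Ribosomal protein genes share words with each other and with their copies, so they are not independent points.

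Only a few ribosomal protein genes went the other way. Rpl26, of the large subunit, whose protein is known to bind the Trp53 mRNA, was at 888.5 and 1219 FPKM in WT serum and 547.9 and 483 FPKM in WT 2i, a difference of -1.02 (SE 0.42, limma adjusted p = 0.0684). In P53-/- ESCs it was at 1496 and 1765 FPKM in serum and 840.4 and 304.5 FPKM in 2i, a difference of -1.68 (SE 0.42, limma adjusted p = 0.00918). All 4 serum libraries were above all 4 in 2i, and the 2 P53-/- 2i libraries differed strongly from each other. The P53-/- difference was -2.42 without the first of these 2i libraries and -0.95 without the second. Rps16, of the small subunit, fell in WT from 620.4 and 686.5 FPKM to 356.9 and 411.6 FPKM, a difference of -0.77 (SE 0.18, limma adjusted p = 0.00734). In P53-/- ESCs its levels were 583.3 and 772.3 FPKM in serum and 480.9 and 428.4 FPKM in 2i, a difference of -0.56 (SE 0.18, limma adjusted p = 0.0262) whose fold was under 1.5. The other genes that fell in P53-/- ESCs were Rpl22l1 (-2.31), Rps27a (-0.66), Rpl23a (-0.61) and Rpl34 (-0.59). Of these 5, Rps27a, Rpl23a and Rpl34 no longer passed without the second P53-/- 2i library or without the second P53-/- serum library. Median-ratio scaling and quantile normalization also lost them. With single libraries left out, Rps27a ran from -0.90 to -0.41, Rpl23a from -0.97 to -0.25 and Rpl34 from -0.84 to -0.34. In WT, Rpl26 no longer passed when any of 6 libraries was left out (limma adjusted p between 0.106 and 0.293).

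**Figure D3:**
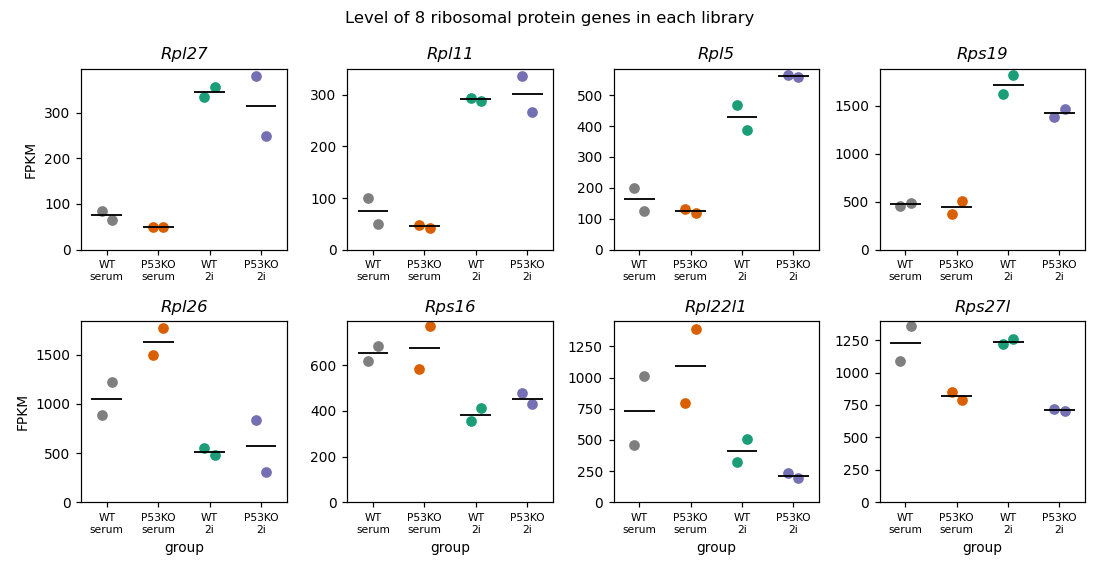
FPKM of 8 ribosomal protein genes in each library (points, 2 in each group) with group means (bars); all vertical axes start at 0. Rpl27, Rpl11, Rpl5 and Rps19 are higher in all 2i than in all serum libraries, Rpl26 and Rps16 are lower, Rpl22l1 is lowest in P53-/- 2i, and Rps27l is lower in P53-/- than in WT libraries of both cultures.

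To show the starts of the genes at both ends of this range, the 30 bases around the RefSeq start site (10 before the start and 20 from the start on) are printed for the 6 genes with a single RefSeq start that rose most in both comparisons and for the genes that fell in either and have a single start. Capitals mark the longest run of C and T in the window. The sequences are those of RefSeq on GRCm38.p6, on the strand of the gene. In the RefSeq annotation the bases from the start on belong to the transcript. GENCODE places the starts of transcripts of most of these genes at other bases.
Rpl27 (chr11:101442235-101442264, + strand): ctgTTCCTgtctgctgctcgtgctgctaat
Rpl11 (chr4:136053374-136053403, - strand): ccataaggccacggggccggaagTCTCCCT
Rpl27a (chr7:109519185-109519214, + strand): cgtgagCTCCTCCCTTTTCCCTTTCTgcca
Rps12 (chr10:23787190-23787219, - strand): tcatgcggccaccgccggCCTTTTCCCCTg
Rpl5 (chr5:107900518-107900547, + strand): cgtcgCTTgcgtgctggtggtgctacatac
Rpl12 (chr2:32961702-32961731, + strand): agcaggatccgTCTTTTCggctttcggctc
Rpl22l1 (chr3:28805498-28805527, + strand): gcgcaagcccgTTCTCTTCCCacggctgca
Rpl26 (chr11:68901556-68901585, + strand): ggcaaCTTacagaaccggaagtcgcgtgta
Rps16 (chr7:28350679-28350708, + strand): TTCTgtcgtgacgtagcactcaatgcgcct

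The runs did not divide these genes by direction. They were 20 bases long in Rpl27a and 11 in Rps12, which rose, and 10 in Rpl22l1, which fell, while Rpl5, which rose, and Rpl26, which fell, each had a longest run of 3. Of the 85 genes, 64 had a RefSeq promoter window of 300 bases (250 before the start and 50 from it on). A C at the annotated start followed by at least 4 C or T stood in 14 of the 64 (21.9%) and in 2.96% of the other 26961 genes with a window. A run of at least 8 C or T from 15 bases before to 20 after the start was found in 30 of the 64 (46.9%, others 16.1%). Of the 41 genes with a window that rose in WT 2i, 18 had such a run, and of the 23 that did not rise, 12 had it.

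Other letters searched on both strands of the 300 bases were CCGGAAG, the core of the ETS sites, in 25 of the 64 (39.1%, others 9.86%) and AAGATGG in 10 (15.6%, others 7.26%). CACGTG, the E-box bound by Myc, stood in 6 (9.38%, others 8.09%), TATAAA in 8 (12.5%, others 15.7%) and CTTTTCC, which can lie within a run of C and T, in 11 (17.2%, others 9.28%). CCGGAAG was in 15 of the 41 genes that rose in WT 2i and in 10 of the 23 that did not. These are matches of letters, not binding sites.

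Both subunits and the stalk held genes that rose in 2i. Of all genes tested, 27.2% rose and 28.6% fell in WT, and 28.0% rose and 30.1% fell in P53-/- ESCs. Of the 32 small subunit genes 20 rose and Rps16 fell in WT (median 0.74), and 16 rose and Rps27a fell in P53-/- ESCs (median 0.63). Of the 50 large subunit genes 33 rose and Rpl26 fell in WT (median 0.85), and 27 rose and 4 fell in P53-/- ESCs (median 0.72). All 3 stalk genes rose in both genotypes. Rplp0, which anchors the stalk, differed by 1.44 (SE 0.18) in WT, and Rplp2 by 0.82 (SE 0.18). Rpsa, a small subunit protein also known as the laminin receptor precursor, was at 414.3 and 368.1 FPKM in WT serum and 1015 and 1029 FPKM in WT 2i, a difference of 1.39 (SE 0.20).

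The difference was also seen among genes with few shared words, and both with and without snoRNA genes, which some of these genes carry in their introns. Among the 17 genes with under 50% of words shared, 9 rose and 0 fell in WT (median 0.59), and 8 rose and 0 fell in P53-/- ESCs (median 0.71). Of all genes tested 27.2% rose and 28.6% fell in WT, and 28.0% and 30.1% in P53-/- ESCs. Among the 68 others the medians were 0.83 and 0.69. Rpl8, with 8.69% shared, was at 1673 and 1787 FPKM in WT serum and 4014 and 3986 FPKM in WT 2i, a difference of 1.21 (SE 0.23, limma adjusted p = 0.00281). The 29 genes with a snoRNA gene inside had a median of 0.91 in WT and the 56 without a median of 0.79. Over the 85 genes the Spearman correlation of the WT difference was 0.071 with the percentage of shared words, 0.266 with the GC content and 0.233 with the length of the coding sequence, and 0.149 with the mean FPKM. In P53-/- ESCs the same correlations were 0.129, 0.321, 0.311 and 0.028. There the 43 genes with a GC content at or above the median had a median difference of 0.93, with 28 rises and 0 falls, and the 42 others 0.41, with 18 rises and 5 falls. The 44 genes with a coding length at or above the median had a median of 0.94 and the 41 shorter ones 0.37. In WT these medians were 0.94 and 0.72 by GC content, and 0.94 and 0.63 by length. The part of GC content and length in the result was not tested.

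The other lists of the translation machinery are read against all genes tested, of which 27.2% rose and 28.6% fell in WT. Fau, which encodes RPS30 as a fusion with a ubiquitin-like protein, and Rack1, a scaffold of the small subunit, stand outside the symbol rule. Rack1 was at 1249 and 1153 FPKM in WT serum and 4733 and 4837 FPKM in WT 2i, a difference of 2.00 (SE 0.21). Fau differed by 0.41 (SE 0.17, limma adjusted p = 0.0726), a fold under 1.5. Of 7 genes named as translation elongation factors, 3 rose and 1 fell in WT. Eef2, the translocase, differed by 1.42 and Eef1a1, which brings tRNAs to the ribosome, by 0.83. The one that fell was Eef1e1 (-0.997), which is an elongation factor by name only. In P53-/- ESCs 4 of the 7 rose and Eef1e1 fell (-0.64). Of 10 further mRNAs known to carry a TOP tract, 0 rose and 6 fell in WT (median -0.77), and 0 rose and 5 fell in P53-/- ESCs (median -0.83). Those of largest change in WT were Nap1l1 (-2.03), Pabpc1 (-1.57), Hnrnpa1 (-1.44) and Tpt1 (-0.98). Of 12 eIF3 subunit genes 3 rose and 3 fell (median 0.04), and of 78 mitochondrial ribosomal protein genes 16 rose and 7 fell (median 0.20). Of 10 genes that regulate TOP mRNAs, 2 rose and 3 fell (median -0.16). The rises and falls of the eIF3 list and of these regulators were near the shares of all genes tested.

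**Figure D4:**
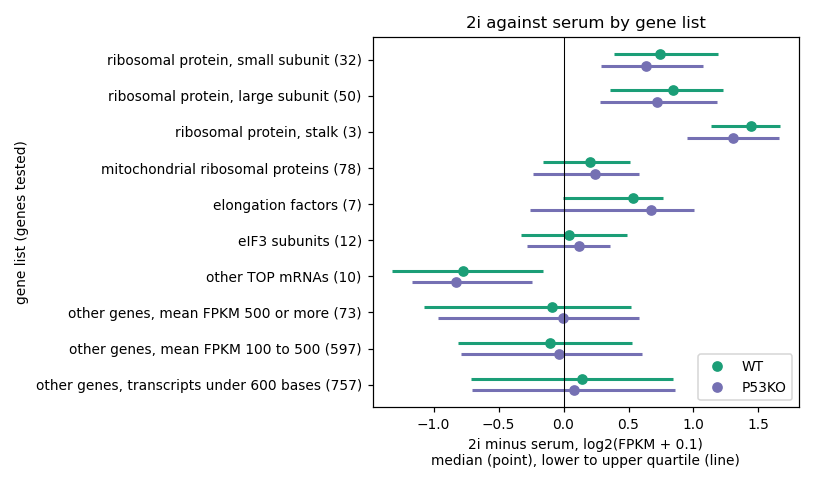
Difference between 2i and serum by gene list on the log2(FPKM + 0.1) scale: points are medians over the genes and lines run from the lower to the upper quartile, green for WT and purple for P53-/- (P53KO) ESCs. The small subunit, large subunit and stalk lists have medians between 0.63 and 1.44, and the other TOP mRNAs -0.77 and -0.83.

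Other genes of like level or length had medians near 0. The 73 other protein-coding genes with a mean of 500 FPKM or more had a median of -0.09 in WT and -0.0018 in P53-/- ESCs, with 18 rises and 23 falls in WT. The 757 other protein-coding genes with a median transcript length under 600 bases had medians of 0.14 and 0.08. The small RNA genes divided the libraries in the same way as the culture: their FPKM summed to 6230000 to 7290000 in the 2i libraries, and in the serum libraries to 15800000 to 79800000. Lars2, a gene with an extreme level in serum, lay between 6.49 and 7.62 FPKM in 2i and between 359 and 5720 FPKM in serum. The part of these differences, and of the ESC, fibroblast and trophoblast markers above, in the ribosomal protein result was not tested.

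Few ribosomal protein genes passed the test between P53-/- and WT ESCs. In 2i, 0 of the 85 rose and 1 fell in P53-/- against WT ESCs (1.18%, where 4.36% of all genes tested rose and 5.97% fell). With no minimum fold the limma fit called 2 lower and 0 higher, where 13.7% of all genes tested were called. The median difference was -0.09 against 0.02 over all genes tested, 57 of the 85 were below 0, and 81 of the 85 were within 1.5-fold. The 95% interval of the difference lay within 2-fold for 77 of the 85. The scaling mattered here: after quantile normalization between libraries the median was -0.39 and 5 genes fell, Rps27l, Rpl10a, Rpl12, Rpl22l1 and Rps14. With the position of the column as a term, Rps29 rose (0.59) and Rpl22l1 fell beside Rps27l, and Rps29 also rose without the second WT 2i library (0.86), names chosen after their values were seen.

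In serum, the limma fit called 0 of the 85 in either direction, where 0.135% of all genes tested rose and 0.883% fell. The median difference was -0.04, 79 genes were within 1.5-fold, and the interval lay within 2-fold for 68. Without the first P53-/- serum library Rpl10l rose (1.32), and without the second Rpl15 fell (-0.88).

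Rps27l was the gene that fell in 2i. It is a copy of Rps27 and a known direct target of P53, whose protein also binds MDM2. Its levels were 1216 and 1255 FPKM in WT 2i and 720 and 700.4 FPKM in P53-/- 2i, a difference of -0.80 (SE 0.17, limma adjusted p = 0.0363). In serum they were 1086 and 1362 FPKM in WT and 851.8 and 790.6 FPKM in P53-/- ESCs, a difference of -0.57 (SE 0.17, limma adjusted p = 0.273). All 4 P53-/- libraries lay below all 4 WT libraries. The interaction of genotype and culture was -0.23 with a 95% interval from -0.79 to 0.33 (limma adjusted p = 0.721). With either P53-/- 2i library left out the difference in 2i was -0.82 or -0.78 and no longer passed (limma adjusted p = 0.118 and 0.16). Rps27l differed little between cultures in WT (0.02, 95% interval from -0.37 to 0.42), and in P53-/- ESCs by -0.21 (95% interval from -0.61 to 0.19).

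Rpl10a, of the large subunit, was the other gene that passed without a minimum fold. It was at 551.8 and 568.7 FPKM in WT 2i and 431.5 and 348.7 FPKM in P53-/- 2i, a difference of -0.53 (SE 0.17, limma adjusted p = 0.0993), and 14 of the other fits lost it. Rpl22l1 had a larger difference in 2i of -0.93 (SE 0.42) that did not pass (limma adjusted p = 0.217). It passed after quantile normalization (-1.11, limma adjusted p = 0.0902) and with the position of the column as a term (-0.93, limma adjusted p = 0.0719).

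The genes whose proteins are reported to bind MDM2 or P53 numbered 15. Rps27l apart, 0 of them passed between the genotypes in 2i in the limma fit, where 4.36% of all genes tested rose and 5.97% fell, and 0 of the 15 did in serum, where 0.135% and 0.883% did. Rpl5 was at 468.9 and 388.6 FPKM in WT 2i and 564.2 and 559.6 FPKM in P53-/- 2i, a difference of 0.40 (95% interval from -0.11 to 0.90). In serum Rpl5 was at 199.2 and 125.9 FPKM in WT and 132.5 and 117.8 FPKM in P53-/- ESCs, a difference of -0.34 (95% interval from -0.85 to 0.16). This value was -0.01 without the first WT serum library and -0.67 without the second. Rpl11 differed by 0.04 in 2i and -0.66 in serum (95% interval from -1.34 to 0.03), and the serum value was -0.14 without the first WT serum library and -1.17 without the second. Rpl23 differed by -0.18 and 0.12. Between 2i and serum, 7 of the 15 rose and Rpl26 fell in WT, and 4 rose while Rpl26 and Rps27a fell in P53-/- ESCs, with medians of 0.54 and 0.33 against 0.82 and 0.71 over all 85. Among all genes tested 27.2% rose in WT and 28.0% in P53-/- ESCs, so the 4 rises of 15 in P53-/- ESCs were near that background. The 7 that rose in WT were Rpl5, Rpl11, Rpl23 (0.63), Rps3 (1.36), Rps7 (0.88), Rps14 (1.18) and Rps20 (0.75). Those that did not pass were Rpl37 (0.54, a fold under 1.5), Rps15 (0.30), Rps25 (-0.30), Rps26 (0.14), Rps27 (0.33), Rps27a (-0.14) and Rps27l. Of the 18 genes linked to Diamond-Blackfan anaemia, 11 rose and Rpl26 fell in WT, and 0 passed between the genotypes in either culture.

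**Figure D5:**
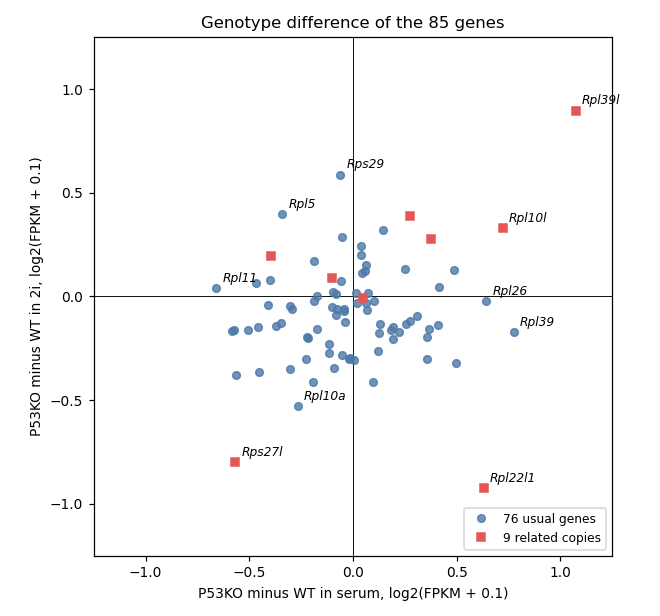
Difference between P53-/- (P53KO) and WT ESCs for the 85 genes on the log2(FPKM + 0.1) scale, in serum (horizontal axis) and in 2i (vertical axis); circles are the 76 usual genes and squares the 9 related copies. Most genes lie close to 0 on both axes, Rps27l is negative on both (-0.80 in 2i and -0.57 in serum) and Rpl22l1 is negative in 2i (-0.93) and positive in serum (0.63, between 0.05 and 1.21 with single libraries left out).

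The interaction of genotype and culture tests whether the effect of P53 differs between 2i and serum. It passed for 0 of the 85 genes in the limma fit (0.207% of all genes tested). The widest estimate was that of Rpl22l1, at -1.55 with a 95% interval from -2.92 to -0.19 (limma adjusted p = 0.332). Also at an unadjusted limma p under 0.05 were Rpl39 at -0.95, Rpl5 at 0.74 and Rpl7 at -0.66, none of them past adjustment. The share of all genes under that unadjusted cut is not given here, so these names are not read as an excess. Without the first or the second WT serum library Rpl22l1 was at -0.98 or -2.13, Rpl39 at -0.53 or -1.36 and Rpl5 at 0.41 or 1.07, and after quantile normalization Rpl7 was at -1.18. The median unadjusted 95% interval reached 0.68 to either side of the estimate, and estimates larger than that did not pass after adjustment.

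The related copies were set beside their parent genes. Rpl22l1, the copy of Rpl22, was at 455.5 and 1014 FPKM in WT serum, 794.1 and 1392 FPKM in P53-/- serum, 321.4 and 504.6 FPKM in WT 2i and 231.8 and 194 FPKM in P53-/- 2i. Its libraries differed from each other by more than those of most genes in serum, and only in P53-/- ESCs did the cultures not overlap. The fall in P53-/- ESCs was -2.31 (SE 0.42, limma adjusted p = 0.00198), and the WT difference was -0.75 (SE 0.42, limma adjusted p = 0.153). The WT difference passed with the position of the column as a term (-0.75, limma adjusted p = 0.0291) and without the first WT serum library (-1.33, limma adjusted p = 0.0417), and was -0.18 without the second. Between the genotypes in serum Rpl22l1 differed by 0.63 (SE 0.42, limma adjusted p = 0.609), which became 0.05 without the first WT serum library and 0.22 without the second P53-/- serum library. Rpl22 itself rose in 2i, from 166.1 and 210 FPKM to 391 and 409.4 FPKM in WT. The mean level of Rpl22l1 was 391% of that of Rpl22 in WT serum, 488% in P53-/- serum, 103% in WT 2i and 58.3% in P53-/- 2i.

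Rpl36al, the copy of Rpl36a, stood at 81.2% of its parent in WT serum and 26.3% in WT 2i, and at 80.6% and 35.0% in P53-/- ESCs. It was lower in 2i by -0.45 (limma adjusted p = 0.0552) in WT and -0.55 (limma adjusted p = 0.0261) in P53-/- ESCs, folds under 1.5, while Rpl36a rose in both. Rpl10l went the other way, from 8.78% of Rpl10 in WT serum to 20.9% in WT 2i. Rps4l stood at 24.4% of Rps4x in WT 2i and 34.7% in WT serum. Rpl7l1, whose protein acts in ribosome assembly, was at 78.7 to 92.8 FPKM in all libraries and differed by 0.01 (95% interval from -0.23 to 0.26) between the cultures in WT.

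Rpl39l, a copy of Rpl39 with no shared words, was at 29.9 and 58.2 FPKM in WT 2i and 67.6 and 89.4 FPKM in P53-/- 2i, and at 18 and 22 FPKM in WT serum against 25.2 and 70 FPKM in P53-/- serum. The differences of 0.90 in 2i and 1.07 in serum did not pass (limma adjusted p = 0.286 and 0.45). Rps27l had a mean of 997.6 FPKM against 10.5 FPKM for Rps27, all of whose words are shared. Over all 9 copies, 3 rose and 0 fell in 2i in WT, with a median of 0.02, where 27.2% of all genes tested rose. In P53-/- ESCs 1 rose and 1 fell, with a median of 0.20, where 28.0% of all genes tested rose and 30.1% fell. Among the 76 usual genes 53 rose in WT, with a median of 0.85.

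Rpl32l stood apart by library and not by group. It was at 1.56 and 30.9 FPKM in the P53-/- 2i libraries and at 1.36 and 26.7 FPKM in the WT 2i libraries, in the order of the columns of the table, and between 3.38 and 5.82 FPKM in the 4 serum libraries. The second minus the first library correlated between the genotypes in 2i over the 85 genes with r = 0.769, over the 84 without Rpl32l with r = 0.164 and over all genes tested with r = 0.136. In serum it correlated with r = 0.407 over the 85, 0.423 without Rpl32l and 0.082 over all genes tested. The 95% intervals of its differences reached 3.53 to either side (log2).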

How the data were processed

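Total RNA of G1-sorted ESCs was depleted of ribosomal RNA, reverse transcribed with random primers and made into stranded libraries, per the labels. The authors deposited FPKM per gene symbol. The submitters' processing notes name STAR, Cufflinks, DESeq2 and mm9, and versions and annotation are not given in the sources used here. Of 12 samples, 8 have columns in the table, 2 in each of 4 groups; the headers give genotype and culture only, so libraries are named by column order. The other 4 samples were not analysed here.

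The members, the gene lists and the tests were chosen with earlier results of these data known. A pseudocount of 0.1 was added to each FPKM before the log2, and the 12572 genes averaging at least 0.5 FPKM entered 1 limma fit (version 3.58.1, R version 4.3.3) of the 4 groups with an intensity trend and Benjamini-Hochberg adjustment over all of them. The script was tested on simulated data. Named genes are those past the threshold (at most 6 in each direction), the 5 highest and 5 lowest, the related copies with their parents, the MDM2 or P53 list with the stalk genes and Rpsa, the ribosomal protein genes outside the symbol rule, Trp53, Cdkn1a and Mdm2, and at most 4 genes from each other list. The values of 2 genes are not reported here by name. Depth was estimated from the modal smallest step of genes with 1 transcript and is approximate. Coding sequences, snoRNA genes and 50-base words, compared on both strands, were taken from GENCODE M21 on GRCm38, by symbol (98.3% of symbols matched). Promoter windows were those of RefSeq on GRCm38.p6. No coordinates of the table's build were used. Alternatives changed the pseudocount, the filter, the scaling, the variance trend, the groups fitted, the threshold and the libraries; the position of the column as a term was added after the data were seen.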

Additional observations from a re-analysis of the deposited data

How the results depend on the processing

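The counts and medians of the 2i against serum comparisons kept their direction under all settings run. Of 396 counts of called genes under another setting 349 stayed within 1.5 times the main count, as did 90 of 94 medians within the spread between libraries, and of 755 values of single genes 37 lost and 4 gained the threshold. No single gene that passed changed sign. Among those that passed in neither fit the sign changed in 3 values, of 2 differences no larger than 0.04 in size (Rpl11 for P53 in 2i and Rps27l between the cultures in WT). The median changed sign in 5 values, each with 1 library left out: to 0.03 for P53 in 2i and 0.02 for the interaction without the second P53-/- 2i library, to 0.02 for the interaction without the second P53-/- serum library, and for P53 in serum to 0.03 without the first P53-/- serum library and 0.06 without the second WT serum library.

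The rises in 2i were 50 to 67 in WT and 39 to 54 in P53-/- ESCs. Quantile normalization moved 4 of the 5 medians most, to 1.18 in WT, 0.96 in P53-/- ESCs, -0.39 for P53 in 2i and -0.33 for the interaction. The median for P53 in serum, -0.04, moved most without the second WT serum library. Under quantile normalization the falls in 2i were 0 in WT (1 with no minimum fold) and 2 in P53-/- ESCs, and 5 genes fell without P53 in 2i (7 with no minimum fold). The cause was not tested. Median-ratio scaling gave 2 falls in P53-/- ESCs and, with no minimum fold, 2 in WT, and centring on chromosome medians 2 in WT. With no filter or no variance trend, falls in WT were 1 (2 with no minimum fold), and with an adjusted p under 0.05 they were 1 under either rule. For P53 in 2i the count with no minimum fold was 1 lower with a pseudocount of 0.01, no filter, a mean of at least 1 FPKM, no variance trend, a fit of only the groups compared or an adjusted p under 0.05. The position of the column as a term gave 1 higher and 2 lower under the fold rule, and 1 higher with no minimum fold.

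Leaving out single libraries, P53 in 2i gave 0 to 1 higher and 0 to 1 lower, or 0 to 2 lower with no minimum fold. P53 in serum gave 0 to 1 higher and 0 to 1 lower under either rule. The falls in 2i were 1 to 3 in WT (1 to 4 with no minimum fold) and 2 to 9 in P53-/- ESCs under either rule. Where a group was left with 1 library, that library was assumed to vary like the others. Without the 5 highest genes the shares were 18.2% (WT) and 16.6% (P53-/-) in 2i, and 11.1% (WT) and 11.5% (P53-/-) in serum. A share without mitochondrially encoded genes was not run, since no such symbols were found in the table. No paired analysis was possible because the column headers carry no replicate numbers. The term for the position of the column uses only the order in the table, which is not known to tie libraries to each other. FPKM holds no counts, so the counting error of genes of low level such as Rpl3l (0.576 FPKM) is unknown.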
